A study of Mus musculus with 2 samples.

Results

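The immediate early transcription factors described here are 10 genes, Fos, Fosb, Jun, Junb, Jund, Egr1, Egr2, Atf3, Ier2 and Btg2, taken by symbol from the 32285 genes of the count tables. Their transcripts were counted in 2 single-cell RNA-seq libraries of cells enriched for neutrophils from mouse blood. The WT library holds cells of C57BL/6J mice and the APP/PS1 library cells of the APP/PS1 transgenic Alzheimer's disease model. The labels give the genotype and no treatment, and the study's text gives 3 pooled mice of 7 months for each library, with the APP/PS1 mice described as female. There was 1 library per genotype, so the genotypes cannot be told apart from the libraries, no test was made, and every interval covers counting error only. The study's methods describe the isolation for the APP/PS1 mice and give no separate account for the WT mice. Blood was drawn by cardiac puncture into EDTA tubes, red cells were lysed on ice, and neutrophils were enriched with a negative selection kit.

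Immediate early genes are transcribed within minutes of a stimulus without new protein synthesis, and their RNAs are short-lived. FOS proteins (Fos, Fosb) pair with JUN proteins (Jun, Junb, Jund) to form the AP-1 transcription factor, EGR1 and EGR2 are zinc finger factors with GC-rich sites, ATF3 is a stress-induced bZIP factor, IER2 is a nuclear immediate early protein, and BTG2 is an antiproliferative cofactor of transcription and RNA decay. In blood leukocytes these genes answer growth factors, cytokines and adhesion, and they are also known to be induced while cells are handled after sampling.

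Their promoters are shown first because serum response factor (CArG box) and CREB-family factors (cyclic AMP response element, TGACG in its short form) are the textbook inputs to these genes. RefSeq windows of the 250 bases before the start (GRCm38.p6) were at hand for 8 of the 10 genes, and those of Egr1 and Ier2 were not analysed here. In the lines below, 5′ to 3′ on the strand of the gene, capitals mark TGACG or its reverse complement, the full element TGACGTCA in Btg2, and the CArG boxes in Egr2.
Btg2, chr1:134079299-134079336, minus strand: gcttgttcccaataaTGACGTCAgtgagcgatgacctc
Fosb, chr7:19310086-19310120, minus strand: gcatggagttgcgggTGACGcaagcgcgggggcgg
Junb, chr8:84978835-84978869, minus strand: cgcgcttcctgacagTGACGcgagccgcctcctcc
Egr2, chr10:67537479-67537518, plus strand: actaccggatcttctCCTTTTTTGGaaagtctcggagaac
Egr2, chr10:67537743-67537833, plus strand: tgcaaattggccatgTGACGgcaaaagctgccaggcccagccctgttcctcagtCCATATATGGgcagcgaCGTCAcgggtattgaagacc
Fos, chr12:85473746-85473843, plus strand: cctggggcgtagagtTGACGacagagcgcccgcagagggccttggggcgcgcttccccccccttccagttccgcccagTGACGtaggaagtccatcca
The short element TGACG, searched on both strands, was in 6 of the 8 genes with a window (Atf3, Btg2, Egr2, Fos, Fosb and Junb), against 19.8% of the 27025 genes with such windows. The CArG box, searched by its consensus pattern on both strands, was in Egr2 alone, against 1.62% of genes. Sites farther than 250 bases before the start were not searched. The full element TGACGTCA, which contains TGACG, was in Btg2 alone, against 1.77%. The AP-1 letters TGANTCA were in none of the 8, against 7.82%, and the SP1 letters GGGCGG were in 6 (35.4% of genes). The EGR letters GCGNGGGCG were in Btg2 and Fosb (5.33% of genes). An NF-kB motif, searched by a consensus pattern, was in Egr2, Fos and Fosb (9.0%). These matches describe letters in a window and were not tied to any binding in these cells.

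The 10 genes lie on 7 chromosomes, with Egr1 on chromosome 18. In mm10, Fos spans chr12:85473890-85477273 on the plus strand, Egr2 chr10:67535475-67542188 on the plus strand and Jund chr8:70698949-70700616 on the plus strand. Junb (chr8:84974484-84978718) and Ier2 (chr8:84661331-84662852) are on the minus strand of the same chromosome as Jund. Btg2 (chr1:134075170-134079120) and Atf3 (chr1:191170296-191218039) share chromosome 1, and Fosb (chr7:19302696-19310051) and Jun (chr4:95049034-95052222) are, like them, on the minus strand. Jun, Jund and Ier2 are annotated with a single exon, whereas Atf3 transcripts have up to 5 exons over 47744 bases. The printed Btg2, Fosb, Junb and Fos stretches lie upstream of these spans, and both Egr2 stretches lie inside the span of Egr2, outside its annotated exons.

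The libraries were close in depth. The WT library held 17123 barcodes with a median of 3345 UMIs (unique molecular identifiers, 1 for each captured molecule), and the APP/PS1 library 17645 with a median of 3115. After the limits on genes, UMIs and mitochondrial share, 14564 and 15208 cells were kept, and 83 barcode sequences occurred in both libraries. Clusters were named from marker lists, so each cell type below means cells like that type. Despite the enrichment label, classical and nonclassical monocytes made up 2455 and 2848 cells of the WT library and 1749 and 1801 of the APP/PS1 library, beside B, T and NK cells and 73 and 43 basophils. Clusters of neutrophils without platelet genes held 5909 WT cells and 6958 APP/PS1 cells and are called neutrophils here. Levels are UMIs of a gene divided by all UMIs of the cells of that type and multiplied by 1000000 (CPM). The tags come from 3′ ends and are not scaled by length, so levels are compared for a gene between cells and not between genes.

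In neutrophils, 9 of the 10 genes had higher levels in the APP/PS1 library than in the WT library, and 6 of them by more than 0.5 on the log2 scale (Jun, Egr2, Egr1, Fos, Btg2 and Ier2). Among the 8916 genes with at least 50 UMIs in neutrophils, 6.53% were higher by more than 0.5 and 4.46% lower by more than 0.5, and none of the 10 was lower by that much. The median difference was 0.52 for the 10 genes and 0.06 for all genes, of which 61.3% were above 0. Summed over the 10 genes, the level was 14580.1 CPM in the WT library and 20380.2 CPM in the APP/PS1 library, a ratio of 1.40 (95% interval 1.39 to 1.40). Heat shock genes, which also respond to stress and handling, had a summed level of 853 CPM and 929 CPM in the same cells. This was a ratio of 1.09 (1.07 to 1.11), and none of the 9 counted genes of that list was past 0.5. Whether handling had a part in the difference of the 10 genes was not tested.

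Among the FOS partners, Fos was at 2609 CPM in WT neutrophils and 4016 CPM in APP/PS1 neutrophils. This is a log2 difference of 0.62 (0.61 to 0.64), above 96.3% of all genes counted. Fosb, its close paralog, was at 509 CPM and 485 CPM, a difference of -0.07 (-0.11 to -0.03), and so stood apart from Fos in direction. Fosb was the only one of the 10 genes below 0 in neutrophils, and its value lay under the median of all genes.

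Among the JUN partners, Jun was at 169 CPM in WT neutrophils and 310 CPM in APP/PS1 neutrophils, a ratio of 1.83 (1.75 to 1.91). Junb, which is often opposed to Jun in growth control, was at 3854 CPM and 4995 CPM, a ratio of 1.30 (1.28 to 1.31). Jund, whose transcript is the least inducible of the JUN genes, was at 1482 CPM and 1681 CPM, a ratio of 1.13 (1.12 to 1.15). The intervals of the 3 JUN ratios did not overlap, with Jun the most and Jund the least different between the libraries.

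Of the zinc finger factors, Egr1 was at 1882 CPM in WT neutrophils and 3056 CPM in APP/PS1 neutrophils, a log2 difference of 0.70 (0.68 to 0.72). Egr2 had far fewer UMIs, 681 and 1535, and was at 40.5 CPM and 73.1 CPM, a difference of 0.85 (0.72 to 0.98). Both EGR genes were thus past 0.5 in the same direction.

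Atf3 was at 463 CPM in WT neutrophils and 647 CPM in APP/PS1 neutrophils, a difference of 0.48 (0.44 to 0.52) just under the 0.5 limit. Ier2 was at 1418 CPM and 2010 CPM, a difference of 0.50 (0.48 to 0.53) just over it. Btg2 was at 2154 CPM and 3107 CPM, a difference of 0.53 (0.51 to 0.55). These 3 genes lay so close to the limit that the count of 6 turned on small shifts. With library sizes scaled by the trimmed mean of M values, 4 genes were past 0.5 (Fos, Jun, Egr1 and Egr2). The same 4 were with ribosomal, mitochondrial, haemoglobin and platelet genes, S100a8 and S100a9 left out of the totals. With equal weight to each neutrophil cluster, an alternative chosen after seeing the data, 3 were (Fos, Jun and Egr1). The share of all genes past 0.5 was not computed under these alternatives.

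**Figure D1:**
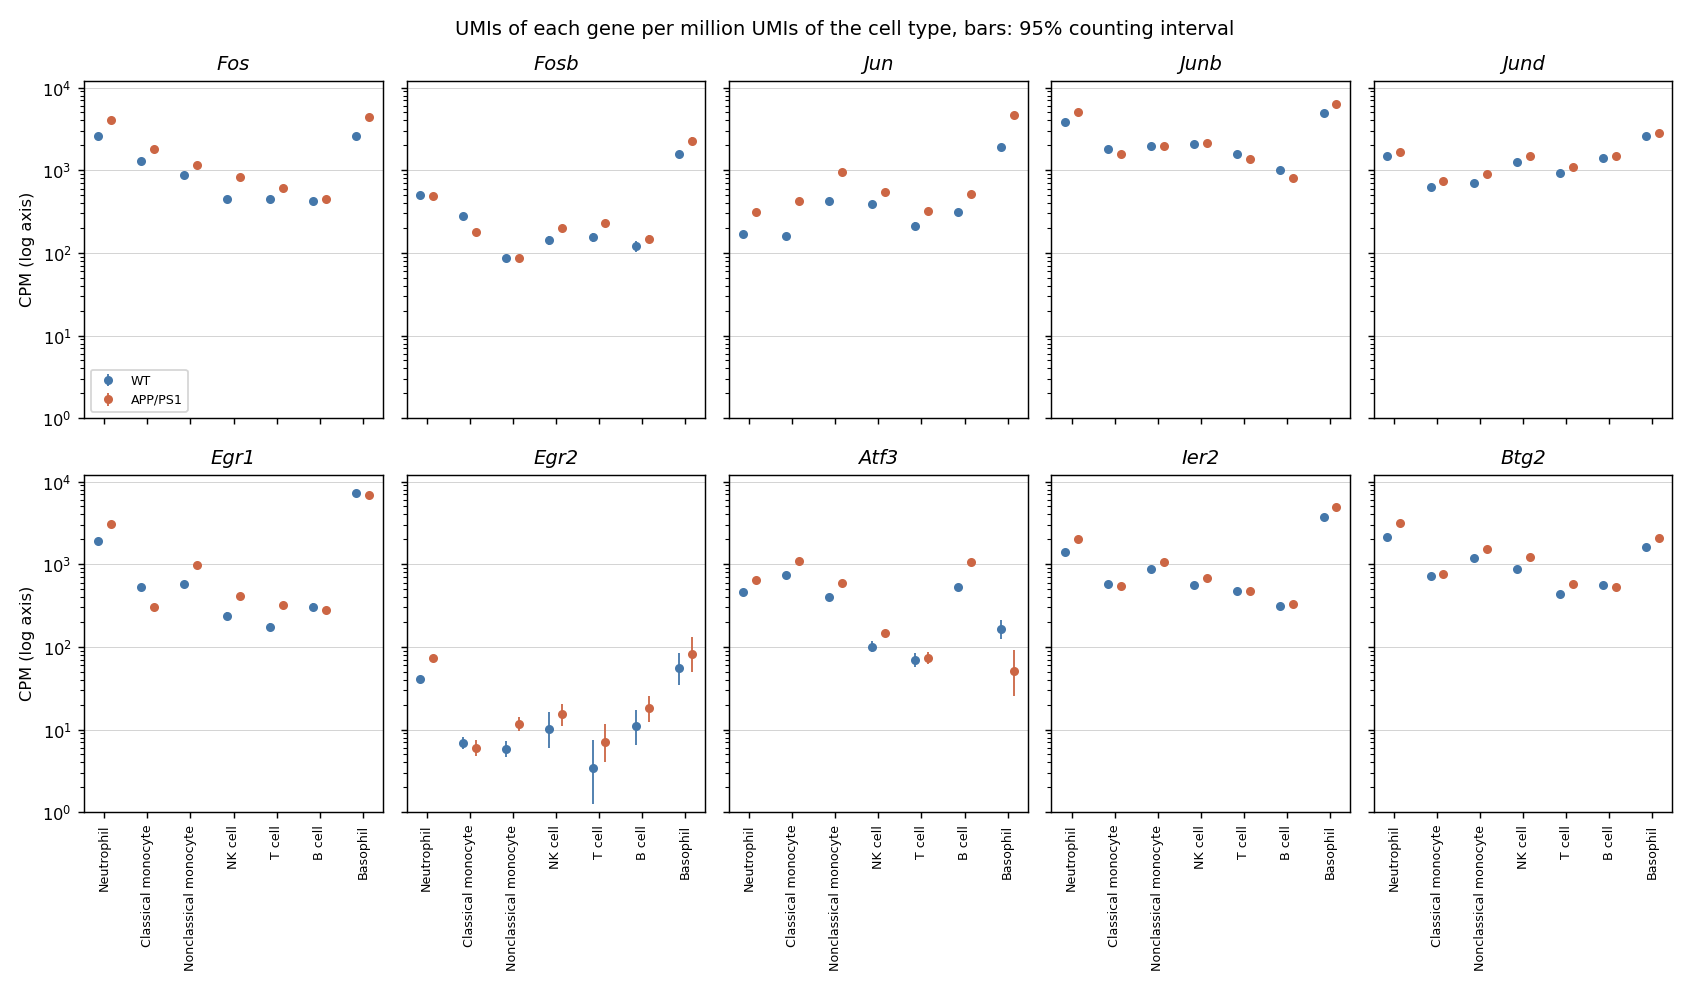
Level of each of the 10 genes (CPM, log axis) in each cell type, with 1 point for the WT library and 1 for the APP/PS1 library and bars for the 95% Poisson interval of counting error. Neutrophils and basophils hold the highest levels for most genes, Atf3 is highest in classical monocytes, and the Egr1 points of classical monocytes lie in the opposite order to those of neutrophils.

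The share of neutrophils with a transcript moved with the level. After each cell was thinned to 1000 UMIs, Egr1 was found in 70.7% of WT neutrophils (Clopper-Pearson 69.6 to 71.9) and 83.9% of APP/PS1 neutrophils (83.0 to 84.7). In T cells the shares were 8.51% and 14.2%, the first being the lowest of the cell types compared in the WT library. NK cells, at 13.9%, were lowest in the APP/PS1 library. How much of these shares came from free RNA in the droplets was not tested. Without thinning, 87.8% and 94.8% of neutrophils had an Egr1 UMI at median depths of 2522 and 2634 UMIs, and 22.9% and 26.3% of T cells at 4136.5 and 3485.5. Jun was found in 13.5% and 21.2% of the thinned neutrophils, so most neutrophils of either library had no Jun UMI at this depth.

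The cluster with the most neutrophils was not the same in the 2 libraries. Of the WT neutrophils, 2627 were in a cluster led by Retnlg, the resistin-like gene of blood neutrophils, and 2411 in a cluster led by Csf1, whereas the Csf1-led cluster held 3543 of the APP/PS1 neutrophils. The Csf1-led cluster also had Egr2 and Il1b among its leading genes. Within that cluster the summed level differed by 0.46 on the log2 scale, and within the Retnlg-led cluster by 0.42. Within the cluster led by the interferon-induced gene Ifit3b it differed by 0.46. In the smallest cluster, led by the secondary granule gene Camp (89 and 180 cells), the difference was 0.23. The share of UMIs from S100a9, an abundant neutrophil alarmin, was also unlike between the libraries, at 96832 CPM and 83916 CPM in neutrophils. The mitochondrial share was 0.327% and 0.278%, and the share of called doublets 0.169% and 1.75%. Without the called doublets 6 genes were again past 0.5 (summed difference 0.48), and the part of the mitochondrial share was not tested.

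**Figure D2:**
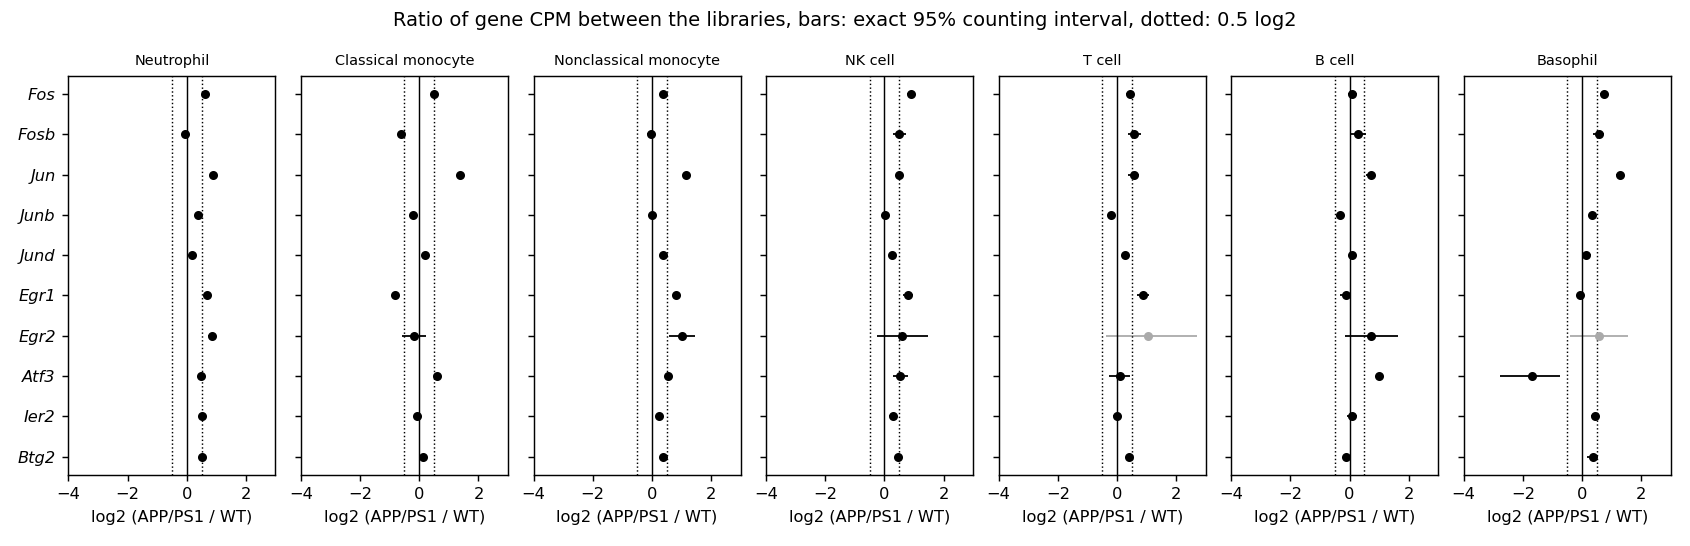
Log2 ratio of the APP/PS1 library to the WT library for each gene in each cell type, with bars for the exact 95% interval of counting error, dotted lines at 0.5 and -0.5, and grey points for genes with under 50 UMIs. Jun lies above 0.5 in every cell type shown, Egr1 lies above 0.5 in neutrophils (0.70) and below -0.5 in classical monocytes (-0.83), and Junb lies within 0.5 of 0 throughout.

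All neutrophils, with those rich in platelet transcripts, were grouped again after integration of the libraries and without the 10 genes among the features. The subtypes were a Camp- and Ltf-rich secondary granule group (164 WT and 216 APP/PS1 cells), a Retnlg-high group (2911 and 2753), a Retnlg-low group (1710 and 2993), an interferon group (719 and 1071), a platelet-transcript group (1338 and 1962) and an unnamed group of deeper cells (738 and 595). The secondary granule group, which holds the least mature neutrophils of blood, had the lowest summed level in both libraries, at 5706 CPM and 5797 CPM. The Retnlg-low group had the highest, at 17872 CPM and 24145 CPM, and the Retnlg-high group lay between, at 13255 CPM and 18156 CPM.

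Between the libraries, the subtypes differed by similar amounts except for the secondary granule group. The summed level differed by 0.45 on the log2 scale in the Retnlg-high group, 0.43 in the Retnlg-low group, 0.51 in the interferon group, 0.43 in the platelet-transcript group and 0.47 in the unnamed group. In the secondary granule group it differed by 0.02 (-0.03 to 0.07), against 0.23 (0.16 to 0.30) in the smaller Camp-led cluster of the clustering before integration, so the value depended on how the group was drawn. The number of genes past 0.5 was 4 of 10 in the Retnlg-high group (background 4.91%), 3 in the Retnlg-low group (5.54%), 7 in the interferon group (7.41%), 4 in the platelet-transcript group (6.25%) and 6 in the unnamed group (6.64%).

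In the secondary granule group, 1 of the 9 genes with at least 50 UMIs was past 0.5 (background 8.04%). That gene was Jun, at 82.5 CPM in the WT library and 131 CPM in the APP/PS1 library. Fos, at 1169 CPM and 1258 CPM there, differed little, while Junb was at 1418 CPM and 1111 CPM, lower in the APP/PS1 library in this group and higher in the Retnlg-high group at 3631 CPM and 4606 CPM. Egr2, left out of the count, had 11 and 14 UMIs in these cells.

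Within each library, every one of the 10 genes was higher in the Retnlg-low than in the Retnlg-high group, as were 81.7% (WT) and 83.0% (APP/PS1) of all genes counted. Atf3 differed most, at 341 CPM in WT Retnlg-high and 699 CPM in WT Retnlg-low neutrophils (log2 difference 1.03) and at 454 CPM and 887 CPM in the APP/PS1 library (0.96). Egr2 differed by 0.93 and 0.94, Egr1 by 0.90 and 0.64, and Jun by 0.81 and 0.64. Fos differed less, by 0.22 and 0.28. The same 4 genes (Jun, Egr1, Egr2 and Atf3) were past 0.5 in both libraries, against 25.9% of all genes in the WT library and 26.1% in the APP/PS1 library. This background is high because the median of all genes was itself 0.29 and 0.30, against 0.41 and 0.41 for the 10 genes. Scaling by the trimmed mean of M values brought the difference of the summed level, averaged over libraries, from 0.42 to 0.13, so most of it depended on which total the UMIs were divided by.

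**Figure D3:**
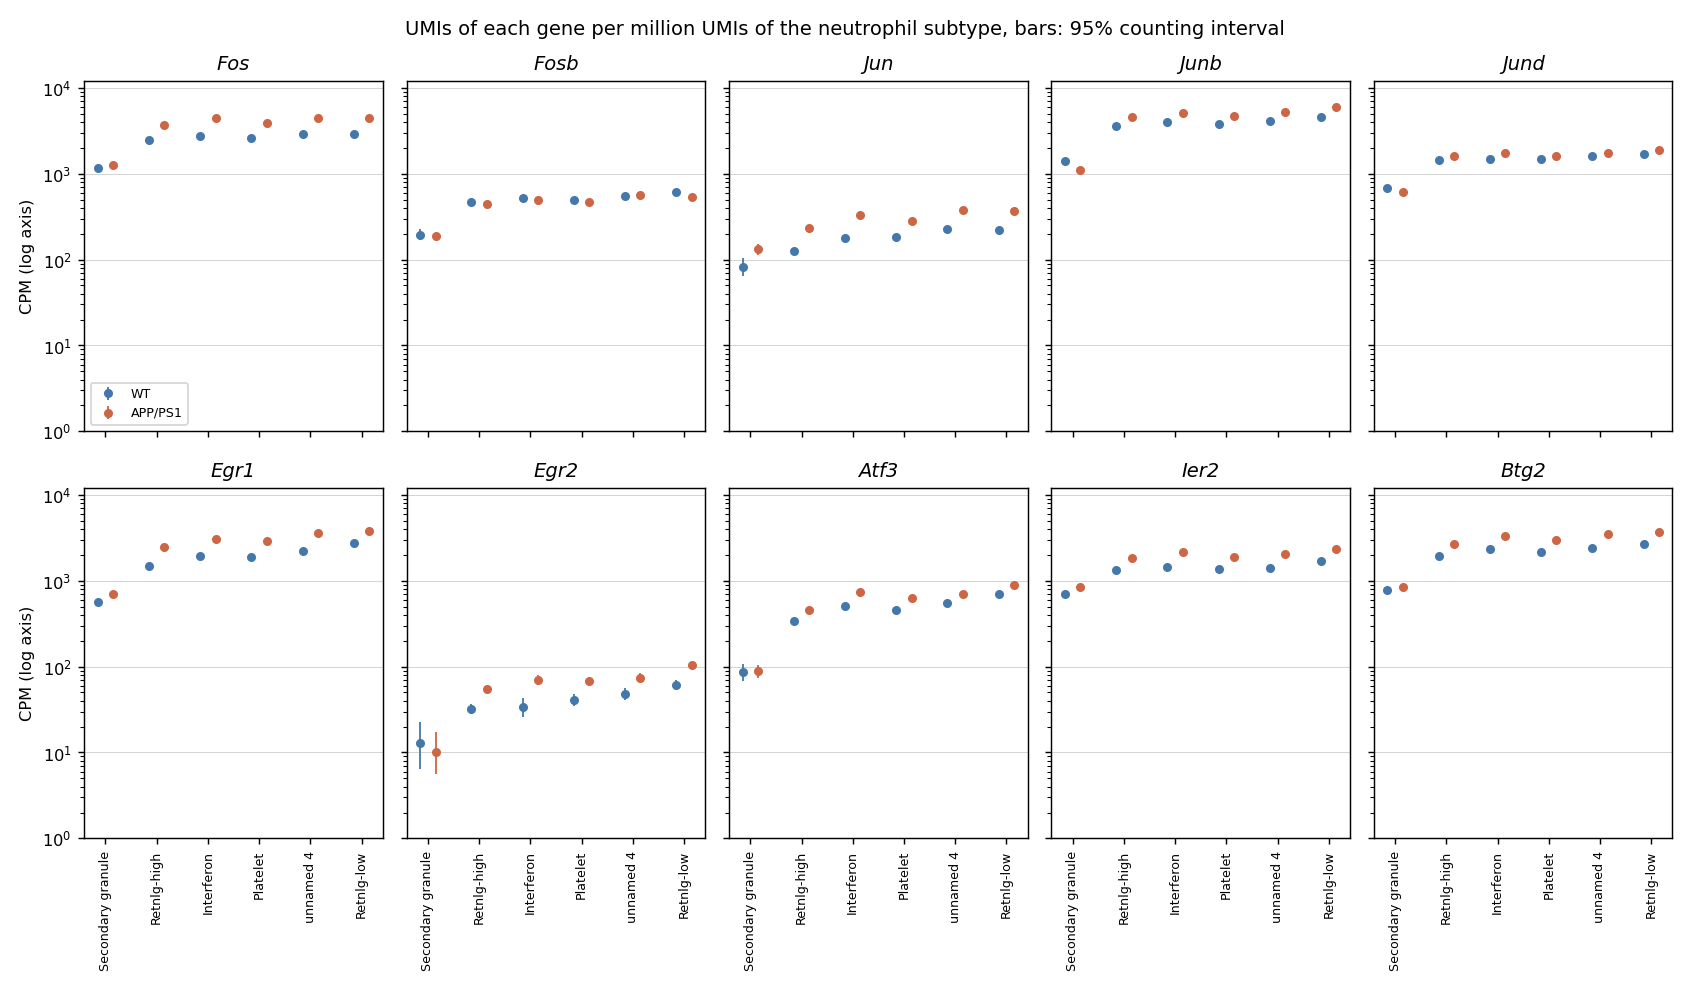
Level of each gene (CPM, log axis) in the neutrophil subtypes of the WT and APP/PS1 libraries, with 95% Poisson intervals. Every gene is lowest in the secondary granule group, and the APP/PS1 points lie above the WT points for most genes in the other groups, while Fosb lies below in all of them except the unnamed group.

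Across cell types, Fos was highest in basophils and neutrophils. In the WT library these were at 2627 CPM and 2609 CPM with overlapping intervals, followed by classical monocytes at 1279 CPM, nonclassical monocytes at 879 CPM, and T, NK and B cells at 453, 445 and 422 CPM, which overlapped. The APP/PS1 order was basophils (4355 CPM), neutrophils (4016), classical monocytes (1825), nonclassical monocytes (1148), NK cells (827), T cells (614) and B cells (451). Counting intervals of neighbours did not overlap, but they leave out the spread over the 43 APP/PS1 basophils. Fosb was at 1554 CPM in WT basophils, 509 CPM in neutrophils, 276 CPM in classical monocytes and 87.5 CPM in nonclassical monocytes, with T, NK and B cells between 120 and 154 CPM. In the APP/PS1 library, Fosb was at 2285 CPM in basophils and 86.4 CPM in nonclassical monocytes, and classical monocytes (179 CPM) had come to overlap with NK cells (201 CPM). Fos and Fosb therefore shared their highest cell type but differed in which type was lowest.

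Jun had another order from its partners. In the WT library it was at 1933 CPM in basophils, 429 CPM in nonclassical monocytes, 388 CPM in NK cells, 313 CPM in B cells and 214 CPM in T cells, with neutrophils (169 CPM) and classical monocytes (161 CPM) lowest and overlapping. In the APP/PS1 library basophils (4686 CPM) and nonclassical monocytes (965 CPM) again led, followed by NK and B cells (552 and 512 CPM, overlapping), classical monocytes (421 CPM), and T cells and neutrophils (317 and 310 CPM, overlapping). Neutrophils, high in Fos, were thus among the lowest types for Jun in both libraries. Junb was at 4917 CPM in WT basophils and 3854 CPM in WT neutrophils, at 2073, 1964 and 1820 CPM in NK cells, nonclassical and classical monocytes, at 1571 CPM in T cells and 1006 CPM in B cells. The same order held in the APP/PS1 library, from 6263 CPM in basophils to 799 CPM in B cells. Jund ran in the WT library from 2588 CPM in basophils through neutrophils (1482) and B cells (1401) to nonclassical monocytes (706) and classical monocytes (635). It ran from 2856 CPM in APP/PS1 basophils to 734 CPM in classical monocytes, with NK and B cells overlapping at 1506 and 1470 CPM.

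Egr1 had its highest level in basophils, at 7224 CPM in the WT and 6943 CPM in the APP/PS1 library. Neutrophils were next. In the WT library nonclassical monocytes (568 CPM) and classical monocytes (536 CPM) followed, and B, NK and T cells were at 308, 237 and 175 CPM. In the APP/PS1 library nonclassical monocytes were at 991 CPM, NK cells at 408 CPM, and T cells, classical monocytes and B cells overlapped at 324, 302 and 282 CPM. Classical monocytes thus moved from beside nonclassical monocytes to the lowest group. Egr2 was highest in basophils (55.2 and 82.8 CPM) and neutrophils (40.5 and 73.1 CPM), whose intervals overlapped in both libraries, and lay between 3.43 and 18.0 CPM in the other cell types.

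Atf3 was the gene with an order of its own. It was highest in classical monocytes, at 736 CPM in the WT and 1105 CPM in the APP/PS1 library. B cells followed at 531 CPM and 1066 CPM, the second overlapping with classical monocytes, then neutrophils at 463 CPM and 647 CPM and nonclassical monocytes at 403 CPM and 593 CPM. It was low in NK cells (101 and 146 CPM), T cells (69.7 and 74.0 CPM) and basophils (163 and 50.6 CPM). Ier2 was at 3692 CPM in WT basophils, 1418 CPM in neutrophils, 887 CPM in nonclassical monocytes, 579 and 565 CPM in classical monocytes and NK cells, which overlapped, 480 CPM in T cells and 314 CPM in B cells. It ran from 4971 CPM in APP/PS1 basophils to 334 CPM in APP/PS1 B cells, with NK cells (684 CPM) above classical monocytes (552 CPM). Btg2 was the only gene highest in neutrophils in the WT library beyond counting error, where basophils were at 1617 CPM, nonclassical monocytes at 1197 CPM, NK cells at 872 CPM, classical monocytes at 713 CPM, B cells at 565 CPM and T cells at 436 CPM. In the APP/PS1 library neutrophils again led for Btg2, above basophils at 2069 CPM, and T and B cells overlapped at 583 and 525 CPM.

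The classical monocytes of blood, the Ly6c2- and Ccr2-expressing precursors of tissue macrophages, differed between the libraries in both directions. Jun was at 161 CPM in the WT and 421 CPM in the APP/PS1 library, a log2 difference of 1.38 (1.32 to 1.45). Atf3 differed by 0.59 and Fos by 0.51, so 3 of the 10 genes were higher by more than 0.5 (background 3.51%). With cells thinned to 1000 UMIs, Fos differed by 0.49 and 2 genes were past the limit. Egr1, in contrast, was at 536 CPM and 302 CPM, a difference of -0.83 (-0.88 to -0.77). Fosb was at 276 CPM and 179 CPM, a difference of -0.62 (-0.69 to -0.56). These 2 genes were lower by more than 0.5 (background 4.01%), and the summed level of 6744 CPM and 7473 CPM hid both movements. Called doublets were 15.6% of WT and 7.20% of APP/PS1 classical monocytes, and without doublets the Egr1 difference was -0.92. It was -0.60 with limits on genes and UMIs set over both libraries, and -1.32, over 1.5 times its size, without such limits. If all S100a9 in classical monocytes had come from RNA with the mean make-up of neutrophils, that RNA would have brought 117 CPM and 165 CPM of Egr1.

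Nonclassical monocytes, the vessel-patrolling Ace- and Treml4-expressing cells, had 4 genes higher by more than 0.5 (background 3.07%). Jun was at 429 CPM and 965 CPM, a difference of 1.17 (1.12 to 1.22), and Egr1 at 568 CPM and 991 CPM, a difference of 0.80 (0.76 to 0.85). Egr2 (82 and 104 UMIs) differed by 1.01 and Atf3 by 0.56. The Egr2 levels of 5.86 CPM and 11.8 CPM stood against 4.06 CPM and 7.67 CPM for neutrophil RNA at its mean ratio of Egr2 to S100a9. Junb was at 1964 CPM and 1968 CPM, a difference of 0.00 (-0.02 to 0.03). Heat shock genes differed here too, with a summed level of 2319 CPM and 3027 CPM and 3 of 10 counted genes higher by more than 0.5. Whether the heat shock difference had a part in that of the 10 genes was not tested.

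In NK cells, the cytotoxic lymphocytes that lack rearranged antigen receptors, 6 genes were higher by more than 0.5 (background 6.08%). They were Fos at 0.90 (0.78 to 1.02), Egr1 at 0.78, Egr2 at 0.58, Atf3 at 0.54, Jun at 0.51 and Fosb at 0.50. In T cells 3 genes were (background 6.94%), with Egr1 at 0.89, Fosb at 0.59 and Jun at 0.57. Most of the Egr1 in T and NK cells could be reached by neutrophil RNA. T cells had 175 CPM and 324 CPM. Of these, 148 CPM and 288 CPM would be present if all their S100a9 came from RNA with the mean make-up of neutrophils. NK cells had 237 CPM and 408 CPM of Egr1 against 196 CPM and 338 CPM. Fos in NK cells was at 445 CPM and 827 CPM against 271 CPM and 444 CPM. The counts of genes past 0.5 were not corrected for such RNA. Jun was far above that level, which was 13.3 CPM and 29.1 CPM in T cells against measured values of 214 CPM and 317 CPM. In B cells, Atf3 was at 531 CPM and 1066 CPM, a difference of 1.0 (0.89 to 1.12), and with Jun (0.71) and Egr2 (0.73, from 18 and 33 UMIs) 3 genes were past 0.5 (background 5.61%). The Egr2 intervals of NK and B cells included 0.

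Basophils, the Mcpt8- and Fcer1a-expressing granulocytes, were few but had the highest summed level of the 10 genes, at 26370 CPM and 34561 CPM. Jun was at 1933 CPM and 4686 CPM there, a difference of 1.28 (1.14 to 1.42). Fos differed by 0.73 and Fosb by 0.56, so 3 of 9 counted genes were higher by more than 0.5 (background 8.11%). In thinned cells Jun was found in 56.2% of WT and 79.1% of APP/PS1 basophils. The shares for Fos (79.5% and 67.4%) and Fosb (69.9% and 67.4%) did not rise with the level. The variance of the summed genes was 8.78 and 11.1 times the mean, a spread between cells that the intervals leave out. Atf3, with 62 and 11 UMIs, differed by -1.69 (-2.76 to -0.75) and was the 1 gene lower by more than 0.5 (background 12.4%). Called doublets were 13.7% of WT and 2.33% of APP/PS1 basophils, S100a9 was at 10192 CPM and 6902 CPM, and the haemoglobin gene Hbb-bs was at 7542 CPM and 170 CPM. At its mean ratio to S100a9, neutrophil RNA would reach 48.7 CPM and 53.2 CPM of Atf3, against 163 CPM and 50.6 CPM measured. The part of other cells in this difference was not tested. Egr1 differed by -0.06 (-0.15 to 0.03). With 73 and 43 cells of unknown split among pooled mice, these values rest on the fewest cells of any cell type compared here.

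Jun was thus past 0.5 in each of the 7 cell types compared, Fos in 4 (in classical monocytes not after thinning), Egr1 in 4 upward and 1 downward, and Junb and Jund in none. The same library pair enters each of these comparisons, so they are not independent of one another.

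**Figure D4:**
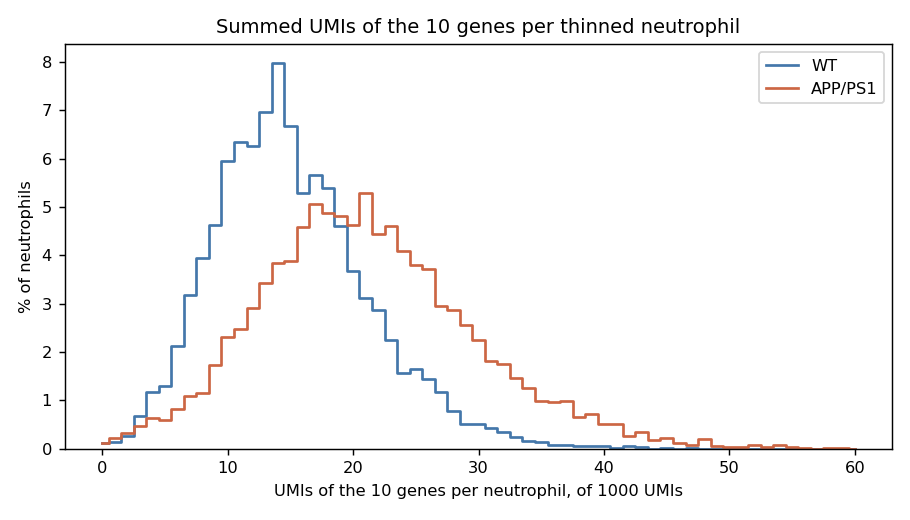
Distribution over single neutrophils, thinned to 1000 UMIs, of the summed UMIs of the 10 genes in the WT and APP/PS1 libraries (percent of cells on the y axis). The APP/PS1 distribution is shifted to higher counts and broader, with medians of 21 and 14 UMIs and no separate group of cells at high counts.

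The distribution over single neutrophils lay higher in the APP/PS1 library, with percentiles 5 and 95 at 8 and 37 UMIs, against 6 and 26 in WT. Clusters were unequally shared between the libraries. With equal weight to each, an alternative chosen after seeing the data, the summed log2 difference was 0.39 instead of 0.48. At 1000 UMIs a WT neutrophil had a mean of 15.1 UMIs of the 10 genes (SD 6.21 over cells) and an APP/PS1 neutrophil 21.1 (SD 8.66), with medians of 14 and 21. At least 7 of the 10 genes were found in 28.7% of WT and 44.7% of APP/PS1 neutrophils. All 10 were found in 2 and 10 cells, and none of the 10 in 0.118% and 0.115% of cells. The variance was 2.55 and 3.55 times the mean, above the value of 1 that counting alone would give for a uniform population.

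The 10 genes were weakly correlated across single neutrophils. Over the 45 pairs, the median Pearson correlation of log(1 + UMIs) at 1000 UMIs was 0.054 in the WT and 0.073 in the APP/PS1 library, and without thinning it was 0.162 and 0.200, so depth per cell moved the median more than the libraries differed. The highest pair was Egr1 with Btg2 in the WT library (0.145) and Junb with Btg2 in the APP/PS1 library (0.208). Against the sum of the other 9 genes, Junb had correlations of 0.222 and 0.350 and Egr1 of 0.233 and 0.323, whereas Fosb had 0.120 and 0.091 and Egr2, which most cells lacked, 0.066 and 0.061. Values were higher in nonclassical monocytes, with medians of 0.106 and 0.118 and highest pairs of 0.310 (Fos with Egr1) and 0.372 (Egr1 with Btg2). The same held for B cells (medians 0.115 and 0.141), NK cells (0.093 and 0.127) and T cells (0.084 and 0.116). Pairs reached 0.385 in APP/PS1 B cells and 0.414 in APP/PS1 T cells. In classical monocytes the medians were 0.051 and 0.067. In sparse counts such low values describe the cells of these libraries only.

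**Figure D5:**
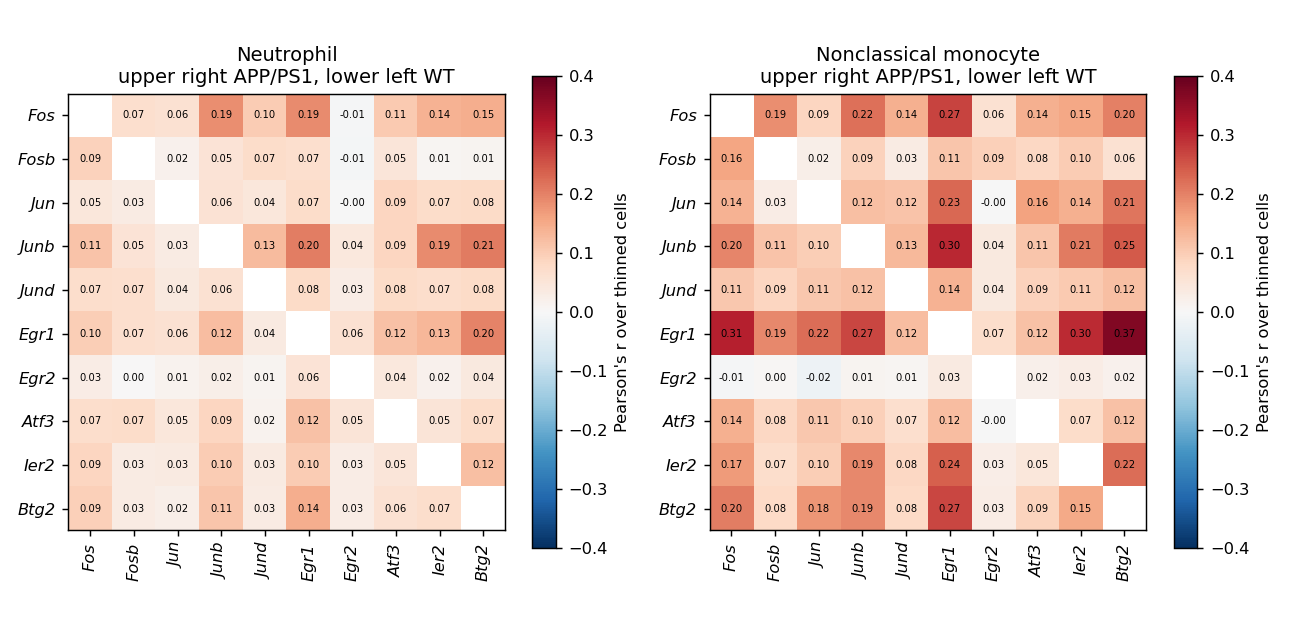
Pearson correlation between each pair of the 10 genes over single cells thinned to 1000 UMIs, for neutrophils (left) and nonclassical monocytes (right), with the APP/PS1 library in the upper right and the WT library in the lower left of each panel and 1 colour scale for both. In neutrophils the strongest colours lie among Egr1, Btg2 and Junb, up to 0.208, the row of Egr2 is pale in both panels, and nonclassical monocytes reach 0.372.

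Among 2092 other genes, those most correlated with the summed 10 genes over thinned neutrophils were Il1b, the inflammatory cytokine interleukin 1 beta (mean of both libraries 0.445), the phosphatase Dusp1 (0.319), the proteoglycan Srgn (0.285), the RNA decay factor Zfp36 (0.284) and the nuclear RNA Malat1 (0.239), followed by Csf3r, Fgl2, Tyrobp, Cebpb and Mcl1. The lowest were S100a8 (-0.422), S100a9 (-0.404), Lcn2 (-0.324), Wfdc21 (-0.309) and Retnlg (-0.296). Since each cell was set to the same total, an abundant gene such as S100a9 leaves fewer UMIs for the rest. In monocytes, NK, T and B cells the summed genes were positively correlated with S100a9, between 0.218 and 0.427. Correlations with heat shock genes in neutrophils were 0.032 and 0.061.

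Over 18 points (9 cell types in 2 libraries, which share libraries and free RNA), the genes whose log2(CPM + 10) was most like the mean of the 10 were Rab11a, a small GTPase of recycling endosomes (0.943), Dynlt1f (0.943), the cyclin-dependent kinase subunit Cks2 (0.940) and the cytokine gene Osm (0.930), then Gm4221, Gm28809, Anxa11os, Gcnt1, Taf7 and Pgghg down to 0.916, among 10516 genes. Of the 10 genes themselves, Ier2 (0.952) and Egr1 (0.945) lay closest to their common mean, and Jun (0.570) and Atf3 (0.087) farthest from it. That mean includes the gene compared, so these values cannot be set beside those of the other genes.

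Other genes of the same pathways in neutrophils showed no common direction. Of all genes counted in neutrophils, 6.53% were higher by more than 0.5 and 4.46% lower, the background for each count below. The counts of higher genes in the 2 longest lists, 2 of 32 and 1 of 15, were near that share. Of 9 counted genes that encode further AP-1 partners, none was higher by more than 0.5 and 1 was lower, the repressor Jdp2 at 87.0 CPM and 59.3 CPM (-0.55). Neither of the 2 counted EGR partners was past 0.5, and Egr3 differed by 0.45. Of 32 counted other immediate early and early response genes, 2 were higher, the GTPase gene Rhob at 172 CPM and 332 CPM (0.95) and Zfp36 at 1730 CPM and 2940 CPM (0.77). In that list 4 were lower, the kinase gene Sik1 at 172 CPM and 96.6 CPM (-0.84), the clock gene Per1 at 242 CPM and 141 CPM (-0.78), and the orphan nuclear receptors Nr4a3 (-0.68) and Nr4a2 (-0.64), and its median was 0.11. Of 15 counted upstream kinases and factors, the MAP kinase kinase kinase gene Map3k8 was higher, at 37.6 CPM and 70.9 CPM (0.91), and the ETS factor gene Elk3 was lower, at 8.32 CPM and 5.57 CPM (-0.58).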

How the data were processed

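The authors aligned and counted reads of 10x Genomics 3′ (version 3) libraries with Cell Ranger 5.0.0 on mm10, per the labels and the study's methods, and deposited filtered matrices of raw UMI counts per gene and cell. Barcodes were kept when their genes and UMIs lay between the percentiles 5 and 95 of their own library and mitochondrial UMIs were at most 10%, after the study's methods. Cells were normalised to 10000 UMIs and clustered with Seurat 5.3.0 (2000 variable features, 15 components, resolution 0.5), neutrophils again after integration by canonical correlation anchors. The 10 genes and the listed immediate early genes were left out of the features, as were, for the subtypes, genes differing by over 0.5 between libraries. Clusters were named from marker lists, and a cluster with over 50% doublets, or led by other genes, stayed unnamed. Doublets were called with Scrublet in scanpy 1.11.5, expecting 8%. Its own threshold called none in the APP/PS1 library, so the WT threshold (0.210) was used for both, calling 9.37% and 7.76%. They were kept except in an alternative.

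Counts were summed per library and cell type and divided by all UMIs of those cells. Intervals are exact Poisson (levels), exact conditional binomial (ratios) and Clopper-Pearson (shares), at 95%, for counting error only. With 1 library of pooled mice per genotype no test was possible. A gene is called past 0.5 on the log2 scale among genes with at least 50 UMIs, and the share of all such genes called is the background. Correlations used cells thinned to 1000 UMIs. The level that free neutrophil RNA could give was computed from the S100a9 level of each cell type and the mean levels of neutrophils. It is too high where a cell type makes S100a9 itself, as monocytes may. It is too low where the RNA came from Retnlg-low neutrophils, which had less S100a9 and more of the 10 genes. It is therefore not an upper bound. The arithmetic was tested on simulated counts. Library sizes by edgeR 4.0.16 (TMM, the trimmed mean of M values) were an alternative. Named genes are the 10, listed pathway genes past 0.5 in neutrophils, and the 10 genes most like their mean across cell types and across cells (those lowest across cells were added afterwards). The genes and lists were chosen with earlier results of these data known. Gene positions are from GENCODE and promoter sequences from RefSeq (GRCm38.p6).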

Additional observations from a re-analysis of the deposited data

Results flagged for a closer look

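Egr1, Fosb and Atf3 had differences between the libraries of opposite sign, past 0.5 on the log2 scale, in different cell types. With 1 library per genotype, none of these differences between cell types was tested. Egr1 differed by -0.83 in classical monocytes, against 0.70 in neutrophils, 0.78 in NK cells, 0.80 in nonclassical monocytes and 0.89 in T cells. At the mean neutrophil ratio of Egr1 to S100a9, neutrophil RNA could have given 148 CPM and 288 CPM of Egr1 in T cells. The measured levels there were 175 CPM and 324 CPM. In NK cells such RNA could have given 196 CPM and 338 CPM of 237 CPM and 408 CPM. RNA of Retnlg-low neutrophils, with more Egr1 for their S100a9, would have given more in both cell types. Fosb differed by -0.62 in classical monocytes, against 0.50 in NK cells, 0.56 in basophils and 0.59 in T cells. Atf3 differed by -1.69 in basophils, where it had 62 and 11 UMIs, against 0.54 in NK cells, 0.56 in nonclassical monocytes, 0.59 in classical monocytes and 1.0 in B cells.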

How the results depend on the processing

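For the 10 genes in neutrophils, 75 of 110 values under alternatives stayed within the counting interval of the reported value, 35 moved outside it and none changed sign. The summed log2 difference in neutrophils (0.48) was 0.49 without percentile limits (0.495) and as a mean over cells (0.491), 0.42 with TMM library sizes and 0.44 with abundant gene classes left out of the totals. Under alternatives chosen after seeing the data, it was 0.47 with the platelet-gene cluster and 0.39 with equal weight to clusters. The median of the 10 genes (0.52) was 0.46 with TMM, 0.47 without abundant classes and 0.40 with equal weights, where the count past 0.5 was 3 instead of 6 (4 with TMM or without abundant classes, and 5 as a mean over cells or after thinning). In classical monocytes the summed difference (0.15) was 0.11 without limits (0.115), 0.20 with pooled limits (0.196) or without doublets (0.195), 0.18 with TMM and 0.12 after thinning, Btg2 (0.11) was -0.0054 without limits, and Egr2 (-0.19, interval including 0) was 0.22 without limits, 0.12 with pooled limits and 0.24 without doublets. The Retnlg-low to Retnlg-high difference (0.42) was 0.44 without doublets (0.442) or integration (0.444), 0.13 with TMM, 0.26 without abundant classes, and 0.41 as a mean over cells or after thinning (0.409), and without percentile limits 1 cluster led both marker lists, so no value was given. The background share (11%) was 15.6% with a minimum of 20 UMIs and 26.5% with none, and it was not computed for the other alternatives. The median correlation without thinning was 0.162 and 0.200. The causes of these movements were not tested. No paired analysis was possible because each genotype had 1 library and the labels give no replicate numbers. Low counts limit Egr2 outside neutrophils and Atf3 in basophils.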

Other observations

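Some clusters entered no comparison. In erythroid cells, of which 37.9% and 49.5% were called doublets, the 10 genes summed to 4001 CPM in the WT and 7365 CPM in the APP/PS1 library, against 3525 CPM and 6831 CPM if all their S100a9 came from neutrophil RNA, and 44.3% of all genes counted in them were higher by more than 0.5. Platelets, 16 barcodes in each library, had 45 and 172 UMIs of the 10 genes. An unnamed cluster led by immunoglobulin genes and Jchain (177 and 256 cells) had 7718 CPM and 12555 CPM.

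The neutrophils rich in platelet transcripts (1671 and 2632 cells) had summed levels of 14425 CPM and 19498 CPM, beside 14580.1 CPM and 20380.2 CPM in the other neutrophils. Egr1 was at 1889 CPM and 2906 CPM in them and Jun at 181 CPM and 272 CPM.

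Outside neutrophils, heat shock genes past 0.5 were all higher in the APP/PS1 library, 3 of 10 counted in classical monocytes (3.51% of all genes), 3 of 10 in nonclassical monocytes (3.07%), 1 of 8 in NK cells (6.08%), 1 of 8 in T cells (6.94%), none of 8 in B cells (5.61%) and 1 of 5 in basophils (8.11%). Of the other immediate early and early response genes, 3 of 34 counted in classical monocytes were higher (3.51% of all genes) and 5 lower (4.01%), and in B cells none of 29 was higher (5.61%) and 5 were lower (8.99%).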
